A study of Mus musculus with 3 samples.

Results

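Ctnnb1 and 7 other genes of cadherin-catenin adhesion were examined in the PAM ChIRP-seq lists of activated satellite cells. The genes were 4 catenins (Ctnnb1, Jup, Ctnnd1 and Ctnna1) and 4 cadherins (Cdh2, Cdh11, Cdh15 and Cdh13), taken by name. This choice was made with earlier results of these data known. Each region of the odd and even probe pools that overlapped one of these genes by at least 1 bp, on the GENCODE M1 annotation of mm9, was assigned to it. This gave 6 of the 2112 odd regions and 2 of the 345 even regions, or 8 of 2457 regions in all. The 5 genes with a region were Ctnnb1, Jup, Ctnnd1, Ctnna1 and Cdh13, and the 3 without one in either pool were Cdh2, Cdh11 and Cdh15.

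Cadherins are calcium-dependent adhesion proteins that bind the cadherins of a neighbouring cell. In classical cadherins, the cytoplasmic tail holds beta-catenin or plakoglobin and, nearer the membrane, p120-catenin, while alpha-catenin joins beta-catenin or plakoglobin to the actin cytoskeleton. Beta-catenin also has a pool outside the junction, which a destruction complex degrades and which, on Wnt signalling, enters the nucleus as a partner of Tcf and Lef factors. In skeletal muscle, N-cadherin and M-cadherin are known from the contacts between satellite cells, myoblasts and the myofiber.

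PAM (PAM-1 in the sample labels) is a long non-coding RNA made from a super-enhancer of myoblasts. ChIRP-seq pulls down crosslinked chromatin with biotinylated DNA probes against an RNA and sequences the recovered DNA. Satellite cells of Tg:Pax7-nGFP mice were sorted from hindlimb muscle, cultured with basic FGF, crosslinked with glutaraldehyde and hybridized separately with the odd and the even probes. Both pools therefore share strain, cell type, culture and crosslinking, no treatment was given, the age of the mice is not in the labels, and the pools differ in the probes. Each pool had 1 library, so the values below carry no replicate error and no test was made. Each list gives a position and a score of at least 4 for each region, whose unit the sources used here do not name. The lists do not hold read counts, so the depth is unknown, and expression was not measured, so the labelled cell type could not be checked against its markers.

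Ctnnb1, which encodes beta-catenin, was the only one of the 8 genes with regions of both pools. Over all protein-coding genes, 156 of the 1445 with an odd region (10.8%) also had an even region. These 156 were 70.0% of the 223 genes with an even region, so regions of both pools are common among such genes. Ctnnb1 is at chr9:120838334-120869625 (plus strand), and its transcript with the longest coding sequence (Ctnnb1-001) has 15 exons, 3623 nt and 781 codons. The odd region of Ctnnb1 had a score of 9. All of its 254 bases were inside exon 9, and they covered 74.9% of this 339-nt exon and codons 405 to 489. This stretch belongs to the armadillo repeats, the rod-shaped core to which cadherins, Tcf factors and Apc bind. One even region, from 120860038 to 120860285, had a score of 4 and lay over the end of exon 4, with 228 coding bases, codons 90 to 165, and 20 bases of the intron that follows. Those codons hold the part of beta-catenin that binds alpha-catenin and the beginning of the armadillo repeats. The other even region, from 120868685 to 120868932, also had a score of 4 and lay entirely in the 3′ UTR in exon 15, with its midpoint 816 nt from the transcript end.

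The odd and even regions of Ctnnb1 did not touch. The odd region was 4188 bp from the first even region and 3957 bp from the second, which in the spliced transcript is 717 and 929 nt. The number of shared loci at the 8 genes was therefore 0, and it was still 0 when regions up to 1000 bp apart were counted as shared. Of the 156 protein-coding genes that held regions of both pools, 51 (32.7%) likewise had no odd region overlapping an even one. Both even regions of Ctnnb1 had the lowest score of the even list, which 158 of its 345 regions share. The odd region scored higher than most of its own list, in which 496 of 2112 regions (23.5%) had a score of at least 9. Because the scale of the scores may differ between lists, 9 and 4 were not compared with each other.

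**Figure D1:**
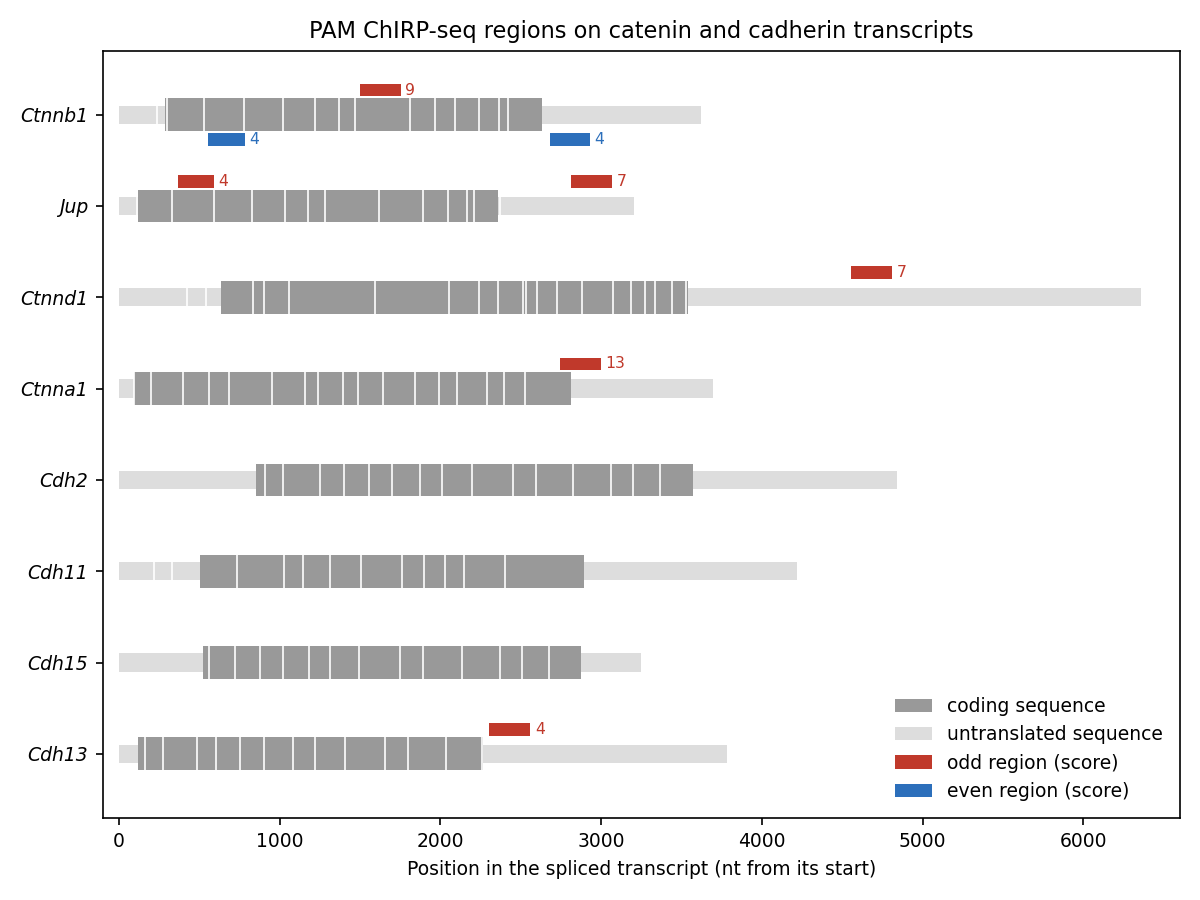
Positions of the odd (red, above) and even (blue, below) regions on the spliced transcript of each of the 8 genes, in nt from the transcript start, with the score beside each region. Dark grey is coding sequence, light grey is untranslated sequence and white lines are exon boundaries. Of the 6 odd regions, 4 have their midpoint beyond the coding sequence, and Cdh2, Cdh11 and Cdh15 carry none.

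Jup encodes plakoglobin, also named gamma-catenin, which is the closest relative of beta-catenin and takes its place in desmosomes and in some adherens junctions. The gene is at chr11:100230272-100259077 (minus strand), with 14 exons and 745 codons in Jup-001. The odd pool had 2 regions in it. The region from 100232072 to 100232325, with a score of 7, was wholly in the 3′ UTR, 266 nt from the transcript end. The region from 100244676 to 100244929, with a score of 4, lay over the end of exon 3, with 221 coding bases, codons 83 to 156, and 33 bases of the next intron. The even pool had no region in Jup, and the nearest one was 377.7 kb away. Among the 1445 protein-coding genes with an odd region, 283 (19.6%) had at least 2, as Jup did.

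The region in exon 3 of Jup and the even region in exon 4 of Ctnnb1 cover corresponding parts of the paralogous proteins. They came from different pools, each had the lowest score of its list, and each ran a few bases past the 3′ edge of its exon. Over 224 aligned columns of coding bases, 148 were identical (66.1%), with 6 gap columns. Aligned in the same way, the exon 9 region of Ctnnb1 was 49.8% identical to the exon 3 region of Jup. Its identity to the exon 4 region of Ctnnb1 was also 49.8%. The longest run shared by the exon 3 region of Jup and the exon 4 region of Ctnnb1 was 13 nt. Between the exon 3 region of Jup and the exon 9 region of Ctnnb1 it was 7 nt. No 31-mer of the exon 3 region of Jup or the exon 4 region of Ctnnb1 occurs more than 1 time in mm9. These 2 regions are shown on the sense strand of mm9, because their positions in the paralogs are read from them. Capitals mark coding exon bases and lower case marks intron.
Ctnnb1 exon 4, even pool, chr9:120860038-120860285, plus strand: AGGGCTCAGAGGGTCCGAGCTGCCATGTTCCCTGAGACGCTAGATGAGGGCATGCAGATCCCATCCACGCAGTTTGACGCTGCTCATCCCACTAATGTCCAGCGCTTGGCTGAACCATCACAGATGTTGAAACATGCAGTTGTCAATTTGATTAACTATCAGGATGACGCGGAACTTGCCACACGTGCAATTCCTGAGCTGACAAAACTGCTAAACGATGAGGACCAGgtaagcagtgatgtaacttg
Jup exon 3, odd pool, chr11:100244676-100244929, minus strand: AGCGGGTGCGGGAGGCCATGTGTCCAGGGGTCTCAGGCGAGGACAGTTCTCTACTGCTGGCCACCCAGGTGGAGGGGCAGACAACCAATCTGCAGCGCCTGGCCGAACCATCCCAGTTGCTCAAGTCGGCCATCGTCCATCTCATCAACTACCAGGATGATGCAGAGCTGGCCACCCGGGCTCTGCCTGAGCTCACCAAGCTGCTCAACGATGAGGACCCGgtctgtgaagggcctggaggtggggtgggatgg

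The exon 9 region of Ctnnb1 held the longest stretch in common with a PAM probe among the 8 regions. This stretch of 11 nt matched probe 3 of the 6 probes, which are 20 nt long. The stretch occurs in Ctnnb1 in the orientation of the probe, on the sense strand. In the odd list, 25 of 2112 regions (1.18%) held a run of at least 11 nt from any of the 6 probes on either strand, and in the even list 12 of 345 (3.48%). The other 7 regions at these genes held runs of 7 to 9 nt, where the median was 7 nt in the odd list and 8 nt in the even list. Which probes formed the odd pool is not given in the sources used here, and the part of such runs in the recovery was not tested.

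Ctnnd1 encodes p120-catenin, which holds cadherins at the cell surface. The gene is at chr2:84440228-84490922 (minus strand), and its longest coding transcript (Ctnnd1-022) has 21 exons and a 3′ UTR of 2824 nt. Its 1 odd region, from 84441779 to 84442032, had a score of 7 and was wholly inside that 3′ UTR, 1678 nt from the transcript end. The midpoint was in the last exon of 25 of the 30 annotated Ctnnd1 transcripts. No even region was in the gene, and the nearest was 7.33 Mb away.

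Ctnna1 encodes alpha-E-catenin, the actin-binding link of the complex, and its region had the highest odd score of the 8 genes. The gene, at chr18:35278542-35414427 (plus strand), spans 135.9 kb, of which 2.72% is exonic. The odd region, from 35413473 to 35413726, had a score of 13, which 230 of the 2112 odd regions (10.9%) reached. It crossed the stop codon in exon 18, the last exon, with 71 coding bases (codons 883 to 906 of 906) and 183 bases of the 3′ UTR. The nearest even region was 2.55 Mb away.

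Among the cadherins, the odd pool had a region only in Cdh13, and the even pool had none. Cdh13 encodes T-cadherin, which is fixed to the membrane by a lipid anchor, has no cytoplasmic tail and so cannot hold a catenin. The gene, at chr8:120807633-121848821 (plus strand), spans 1041 kb, with 1.07% of the span exonic. The region, from 121847341 to 121847594, had the lowest score of the list, 4, and lay in the 3′ UTR in exon 14 of 14, at 1040 kb from the transcript start and 1353 nt before its end.

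The other cadherins had no region in either pool. Cdh2 encodes N-cadherin, and the nearest odd region was 3.74 Mb away. Cdh15 encodes M-cadherin, the cadherin of satellite cells and myoblasts, and the distance was 431.2 kb, to a region with a score of 6 in Zc3h18 and the overlapping Gm20388. Cdh11 encodes OB-cadherin of mesenchymal cells, and the distance was 79.9 kb, to a region with a score of 8 in the predicted gene Gm8730. The spliced transcripts of these genes were 4843, 3251 and 4216 nt long, against 3205 to 6362 nt for the 5 genes with a region. Since the lists only hold regions that passed the authors' peak calling at an unknown depth, a gene without a region was not detected, which does not show that nothing was recovered from it.

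The odd scores at the 8 genes were 4, 4, 7, 7, 9 and 13, with a median of 7 against a median of 6 over the whole odd list, which reaches 81. The even scores were 4 and 4, against a list median of 5 and a maximum of 68. The odd scores thus ran from the minimum of the list to a value that 10.9% of it reached, and the even scores were at the minimum.

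**Figure D2:**
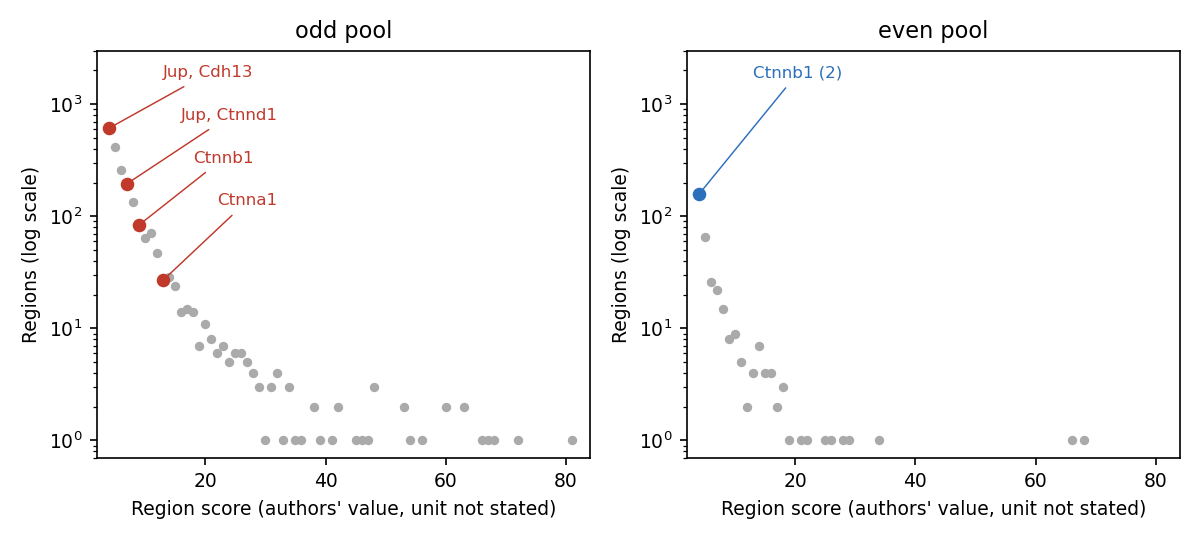
Number of regions (log axis) at each score in the odd and the even list, as grey points, with the scores of regions at the 8 genes in red and blue. Ctnna1 (13) is the highest of the 8 genes in the odd list, where the maximum is 81, and both Ctnnb1 regions of the even list are at its minimum, 4.

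All 8 regions had their midpoint on an exon. For the odd pool this was 6 of 6 (95% Wilson interval from 61.0% to 100%, counting error only), beside 1509 of the 1771 odd regions that overlapped any protein-coding gene (85.2%), counted on exons of the longest coding transcript. The last exon held 4 of the 6, or 66.7% (95% Wilson interval from 30.0% to 90.3%), beside 70.0% of those 1509 regions. The last exons of Jup, Ctnnd1, Ctnna1 and Cdh13 make up 25.9%, 44.5%, 31.6% and 40.3% of their spliced length. By midpoint, 2 of the 6 odd regions were in coding sequence and 4 in the 3′ UTR, where the 1509 regions had 39.7% and 58.2%. Both intervals are wide, since they rest on 6 regions of 1 library, 2 of them in Jup. They are not a test against the shares beside them.

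Distances from the 3′ end of the spliced transcript were 266 and 2709 nt in Jup, 827 nt in Ctnna1, 1353 nt in Cdh13, 1678 nt in Ctnnd1 and 1996 nt in Ctnnb1. The 1509 odd regions had a median of 886 nt, with quartiles at 493 and 1577 nt. The even regions of Ctnnb1 were 816 and 2944 nt from the end, beside a median of 732 nt over 171 even regions. The coding regions of Ctnnb1 and Jup were thus among the more distant ones, and the regions with a midpoint in the 3′ UTR lay between 266 and 1678 nt from the end.

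**Figure D3:**
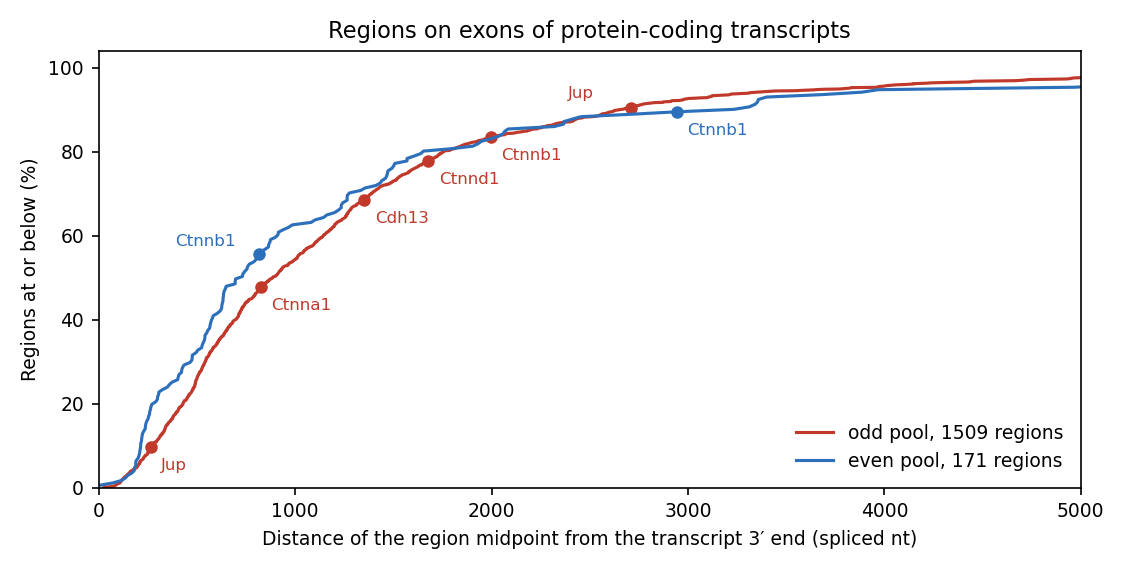
Cumulative share (%) of the odd (red) and even (blue) regions on exons of protein-coding transcripts by the distance of the midpoint from the transcript 3′ end, in spliced nt, up to 5000 nt. Points mark regions of the 8 genes, which run from 266 nt (Jup) to 2944 nt (Ctnnb1, even pool).

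All 8 regions were in single-copy sequence, with a median 31-mer that occurs 1 time in mm9, as in 83.4% of the odd and 80.6% of the even regions. Their GC content ranged from 41.7% in Cdh13 to 63.0% in exon 3 of Jup, around list medians of 49.6% and 48.0%. None of the 8 overlapped a second annotated gene.

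Over all 22380 protein-coding genes, an odd region overlapped 6.46% and an even region 0.996%. Of the 8 genes, 5 (62.5%) had an odd region and 1 (12.5%) an even region. The genes were chosen with earlier results of these data known, so these shares describe them and are not a test. The catenins made up most of this count, with 4 of 4 in the odd pool against 1 of 4 cadherins.

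The wider lists give the rest of the complex and pathway, as 82 genes including the 8. An odd region was found in 14 (17.1%) and an even region in 3 (3.66%), and without the 8 genes in 9 of 74 (12.2%) and 2 of 74 (2.70%). The shares over all protein-coding genes were 6.46% and 0.996%. The lists were chosen with earlier results of these data known, so this is a description and not a test. Of 23 cadherins, 2 had an odd region, Cdh13 and Cdh4, and the latter was in an intron with a score of 4. Of 10 catenins and catenin-named genes, 4 had one, the same as above. Of 11 plakophilin and desmosome genes, 1 had one, Pkp1, in an intron whose median 31-mer has 797.5 copies in mm9. The odd shares of the cadherins (8.70%) and of the plakophilin and desmosome genes (9.09%) are near the 6.46% of all protein-coding genes. These 2 counts are therefore not a result about those lists.

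The proteins that join the complex to actin and to other junctions had more. Of 16 such genes, 7 (43.8%) had an odd region and 2 (12.5%) an even region, beside 6.46% and 0.996% of all protein-coding genes. Of the 2 even regions at these genes, 1 was on an exon and 1 was off exons, and 1 was in repeated sequence. The list was chosen with earlier results of these data known, so these shares are not a test. Zyx encodes zyxin, a LIM protein of adhesion sites and actin bundles. By midpoint, it had odd scores of 12, 18 and 27 on exons 3, 5 and 10, and an even score of 10 on exon 5. The 3 odd regions held 51, 18 and 120 intron bases, in that order, out of 254 each. The even region overlapped the odd region in exon 5 by 20 bp. Vcl encodes vinculin, which binds alpha-catenin under tension. Its odd region had a score of 11 in the 3′ UTR, where the annotated span of Ap3m1 also lies, so the 2 genes cannot be told apart there. Lima1, whose product binds alpha-catenin and actin, had 2 odd regions with a score of 8 each in the 3′ UTR, where Gm17058 is annotated too. Tjp1 encodes the scaffold ZO-1 and had 2 odd regions in coding exons, with scores of 6 and 4.

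Iqgap1, a scaffold that binds beta-catenin, had odd scores of 5 in its 3′ UTR and 4 in an intron. Mllt4 encodes afadin, and its odd region, with a score of 5, was outside the transcript with the longest coding sequence and on an exon of 4 of its 17 transcripts. At these 9 further genes, 9 of 15 odd regions were on exons and 2 of 15 were in repeated sequence, beside 6 of 6 and 0 of 6 at the 8 genes.

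Of 22 genes of the beta-catenin destruction complex, Wnt reception and Tcf/Lef transcription, which include Apc, Axin1, Gsk3b and Lef1, none had a region in either pool. Beside the shares of all protein-coding genes, 6.46% and 0.996%, a count of 0 among 22 genes is near the background and is not a result about this list.

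**Figure D4:**
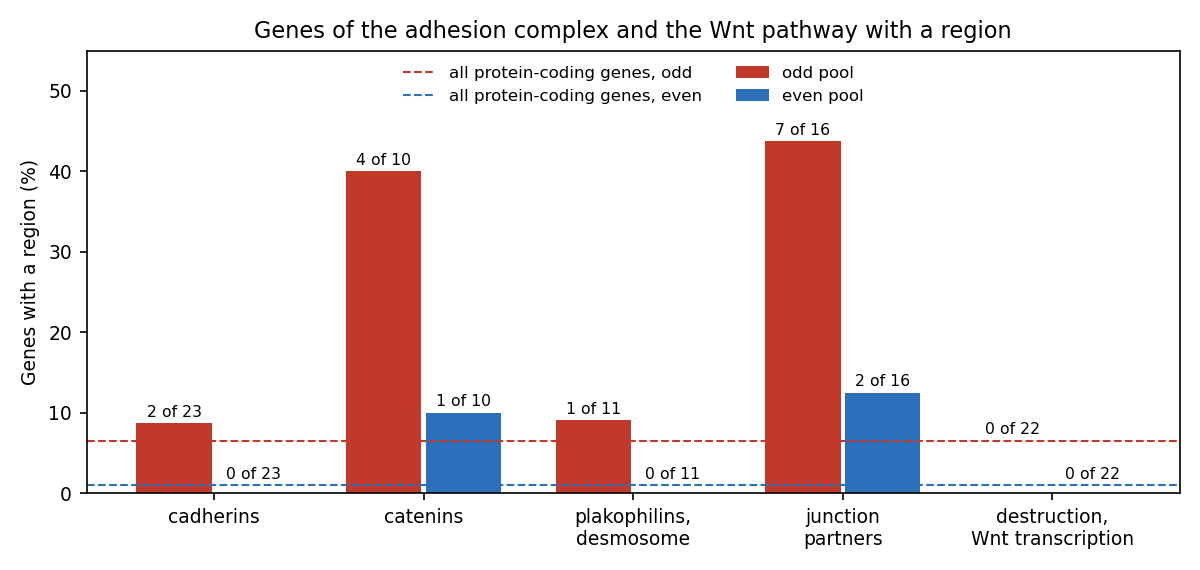
Share (%) of genes with an odd (red) or even (blue) region in 5 lists of adhesion and Wnt pathway genes, with the number of genes above each bar. Dashed lines mark the share over all protein-coding genes, 6.46% for the odd and 0.996% for the even pool. The catenins (4 of 10) and the junction partners (7 of 16) are highest for the odd pool, and the destruction and Wnt transcription list has 0 of 22 in both. All 4 of these catenins are among the 8 chosen genes. The genes and lists were chosen with earlier results of these data known, so the shares are not a test.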

How the data were processed

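PAM ChIRP-seq of ASCs was analysed as 2 deposited lists, 1 per probe pool, and the input was not used. Uniquely mapped reads (Bowtie2, mm9) were passed by the authors to MACS2 for peak calling, and the versions of both are not given in the sources used here. Each list holds regions of a fixed width, 254 bp in the odd and 248 bp in the even pool, with a score deposited by the authors whose unit is not named. A unique-mapping filter removes reads from identical copies, and a peak threshold removes weak regions.

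The first deposited coordinate was read as a 0-based start, and positions are printed counting from 1. Regions were assigned to GENCODE M1 gene spans (NCBIM37, the same assembly as mm9). Exons, codons and distances refer to the transcript with the longest coding sequence, by region midpoint. The 31-mers of each region were counted in the chromosomes of mm9 on both strands. Overlap and exon numbering were tested on simulated data. The named genes were the 8 chosen genes and every listed pathway gene with a region, except 1 gene that is not reported here, as is 1 sequence. The genes and lists were chosen with earlier results of these data known. Genes overlapping a region were named too. Intervals on shares are Wilson intervals at 95%. Python 3.11.15, NumPy 2.4.6, SciPy 1.17.1, numba 0.67.0, Biopython 1.88 and matplotlib 3.10.9 were used.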

Additional observations from a re-analysis of the deposited data

How the results depend on the processing

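The counts at the 8 genes kept their values when the midpoint, exons only, spans extended by 2000 bp, single-copy regions or a 1-based start were used. With only regions at or above the median score of each list, the odd pool kept 4 genes and 4 regions, while the even pool was left with 0 genes and 0 regions, since both Ctnnb1 regions there have the lowest score. That setting also left 9 of the 82 listed genes with an odd region and 2 with an even region. With exons only, 11 of the 82 had an odd region and 2 an even region. The share of protein-coding genes with an odd region, 6.46%, was 4.37% over all annotated genes, 5.48% with exons only and 3.29% with the higher scores, and the even share, 0.996%, was 0.681%, 0.693% and 0.550%. With any transcript, 83.3% of the odd regions at the 8 genes were on a last exon, since exon 3 of Jup ends some annotated transcripts. No paired analysis was possible because a single library stands for each pool. The depth is unknown, so its effect on these counts was not tested.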

Other observations

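Outside the lists, Pcdhgc5, a gene of the gamma-protocadherin cluster and so of the wider cadherin superfamily, held regions of both pools, and it was noticed as the gene with the even region nearest to Ctnna1. In the annotated span of Pcdhgc5, the odd pool had 2 regions, with scores of 11 and 12, and the even pool had 1, with a score of 4. The region with a score of 12 was in the 3′ UTR, in the last exon of 9 of the 10 annotated transcripts. The other odd region and the even region lay outside the transcript with the longest coding sequence and were each on an exon of 1 transcript. The first exons of this cluster are specific to single protocadherins and its last exons are shared by them, so the region in the 3′ UTR cannot be assigned to 1 protocadherin. The gene was chosen after its values were seen.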
